A study of Mus musculus with 11 samples.

Results

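The serpins are a superfamily of proteins named for serine protease inhibitors, and their genes are described here across livers of mice with hepatocellular carcinoma. Members were all genes of the deposited count table whose symbol is Serpin followed by a clade letter from a to i and a number, with pseudogene symbols left out and at least 1 read over all libraries. The rule found 52 of the 43346 genes in the table, among 63 symbols of that pattern. All libraries were made from total liver RNA of FVB/NJ mice in which the tumours had been induced by expressing the growth factor receptor MET together with β-catenin, through which Wnt signals act, in a synthetic transgenic model. There were 6 libraries of mice treated with an antibody against PD-1, an inhibitory T cell receptor, and labelled responders, 4 libraries of mice given the same antibody and labelled non-responders, and 1 whose response label says that it was not treated. Its treatment label nevertheless names the antibody, and it is called untreated here by the response label alone. The labels give no age, no promoter for the transgenes, and no statement on whether the RNA came from tumour or from the liver around it.

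A serpin holds a flexible reactive centre loop out from its body as bait. A target protease cuts the loop and becomes trapped in a covalent complex, and the sequence of the loop decides which protease is caught. The liver makes most of the plasma serpins, among them antitrypsin, antithrombin and the C1 inhibitor, and some members have given up inhibition for other work, such as carrying hormones or folding collagen. Clade A holds the antitrypsin-like secreted members, which in the mouse have multiplied into the Serpina1 and Serpina3 clusters on chromosome 12. Clade B members lack a classical signal peptide and act mostly inside cells.

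The loop of the Serpina1 genes is shown first, because the loop is the part that meets the protease, and these near-identical copies moved in opposite directions between the groups compared. Each line gives the 75 coding bases that end at the conserved motif after the loop, taken from GENCODE M21 transcripts of the reference strain C57BL/6J, with capitals marking bases that differ from Serpina1b. The number of Serpina1 copies is known to vary between mouse strains, and the copies carried by FVB/NJ were not examined here.
Serpina1a: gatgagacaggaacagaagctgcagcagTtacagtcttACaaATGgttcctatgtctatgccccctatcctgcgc
Serpina1b: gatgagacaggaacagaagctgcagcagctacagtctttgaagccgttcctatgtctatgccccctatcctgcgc
Serpina1c: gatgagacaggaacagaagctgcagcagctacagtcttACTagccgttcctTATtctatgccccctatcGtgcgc
Serpina1d: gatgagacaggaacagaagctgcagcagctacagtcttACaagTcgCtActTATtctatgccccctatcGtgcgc
Serpina1e: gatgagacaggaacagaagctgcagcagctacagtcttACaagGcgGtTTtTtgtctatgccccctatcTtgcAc
Relative to Serpina1b, Serpina1a differed at 6 of these bases, Serpina1c at 7, and Serpina1d and Serpina1e at 9 each. The triplet at bases 52 to 54 of the lines shown, was atg in Serpina1a and Serpina1b, TAT in Serpina1c and Serpina1d, and Ttg in Serpina1e. Over the whole coding sequence, the 10 pairs of these 5 genes were 96.3% to 98.5% identical at aligned bases. Serpina1a and Serpina1c were the closest pair, with 19 mismatches.

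Total gene counts ran from 17876515 to 49884800 per library. Whether each library is a mouse of its own is not stated in the labels, and the p-values therefore speak of spread between libraries only, which may be technical. Responder titles carry numbers from 1 to 29 and non-responder titles numbers from 26 to 37, so that outside the range from 26 to 29 the title number and the response label cannot be told apart. Non-responder library 1 stood apart in coverage: over 6263 genes, the median log2 ratio of read density in later to earlier exons was 1.11 in it and -0.20 to 0.03 in the other 10 libraries. The hepatocyte markers checked the tissue label: their summed level was 68248 to 83257 CPM (a gene's counts relative to the library's total, scaled by TMM factors, here and throughout) in responders and 101528 to 135962 in non-responders. Of these 5 markers, Apoa1 and Ahsg were lower and Cps1 higher in responders past the threshold, while Alb and Ttr did not pass. In bulk liver, fewer cells of a type and less RNA per cell cannot be told apart.

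Of the 52 serpin genes, 39 passed the filter on low counts and were tested between responders and non-responders. Serpina6, the gene of the corticosteroid carrier, and Serpina1d, an antitrypsin copy, were lower in responders than in non-responders. Serpinf1, Serpina1a and Serpina12 were higher. These 5 calls were 12.8% of the serpin genes tested, beside 9.93% of all 17610 genes tested (edgeR quasi-likelihood test, Benjamini-Hochberg adjusted p under 0.05). The 3 higher calls stood beside 4.11% of all genes called higher and the 2 lower calls beside 5.82% called lower. A further 13 serpins had an unadjusted p under 0.05 only, which made 18 of 39 where 27.3% of all genes did. Values of responders and non-responders did not overlap for 4 serpins, Serpina6, Serpina1d and Serpinb8 with lower and Serpinf1 with higher values in responders, beside 11.3% of all genes. The median log2 fold change of the tested serpins was 0.06, with 20 above 0 and 19 below, and that of all genes tested was -0.02.

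The number of calls depended on the method and on single libraries. DESeq2 called 13 of the 39 serpins, where it called 17.4% of all genes, and limma-voom with quality weights called 13, where it called 20.7%. With the title number as a covariate no serpin passed in edgeR (10 had an unadjusted p under 0.05), and 0.00568% of all genes passed, which is 1 gene. Without non-responder library 2 no serpin passed in edgeR either (15 had an unadjusted p under 0.05), where 0.441% of all genes did.

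**Figure D1:**
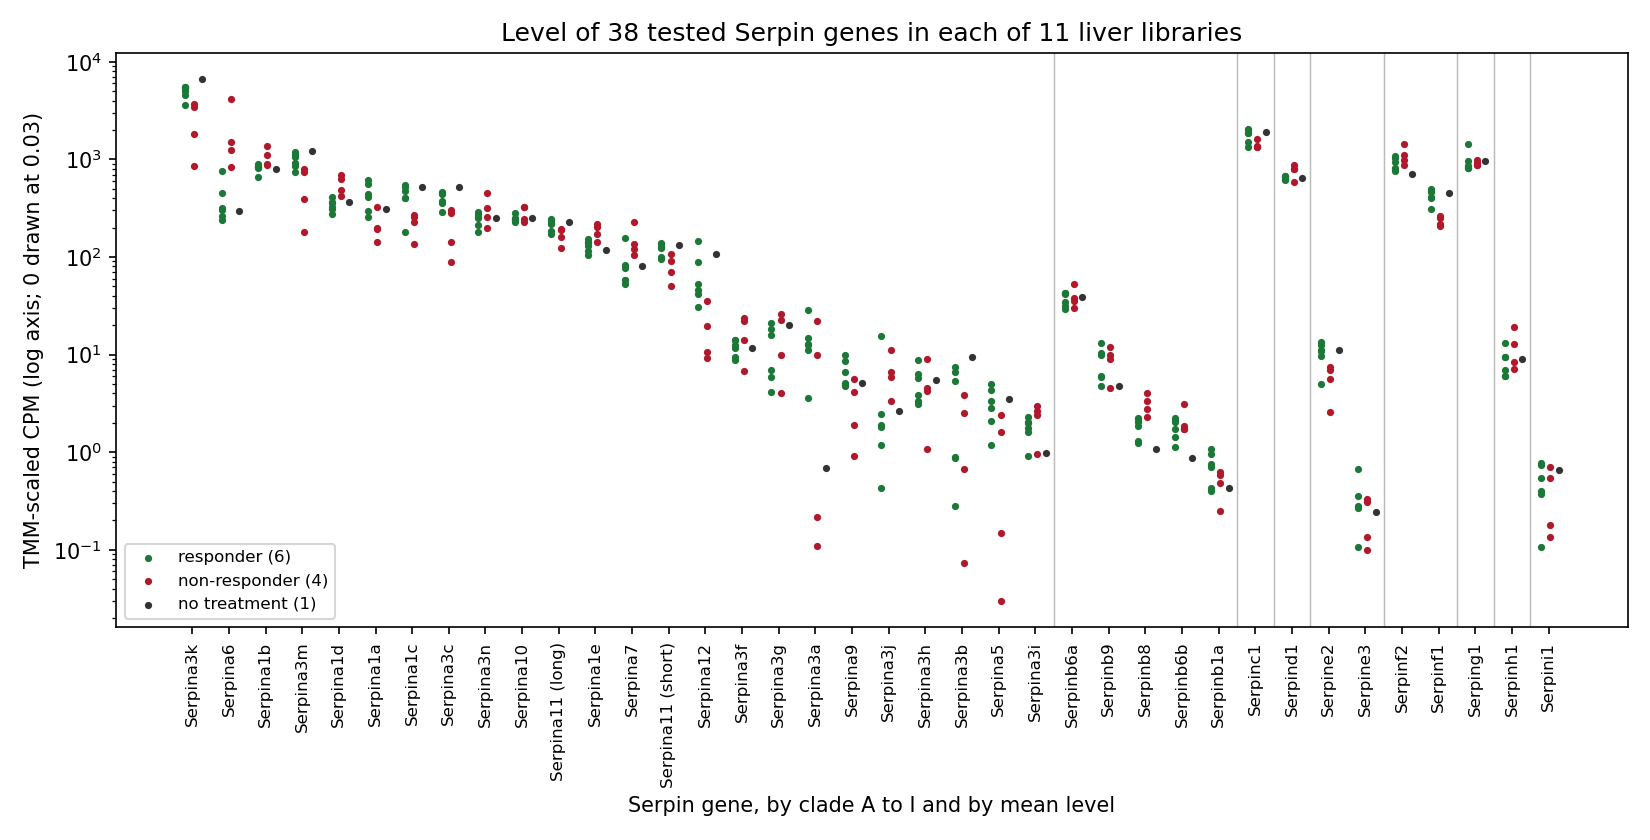
TMM-scaled CPM (vertical log axis) of 38 of the 39 tested serpin genes, by clade from A to I and by mean level within a clade, with 1 point per library (6 responders, 4 non-responders, 1 untreated). Levels run from under 1 CPM for Serpini1 and Serpine3 to 6647 CPM for Serpina3k in the untreated library.

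Summed over all 52 genes, serpins took 1.37% to 1.56% of gene counts in responders, 1.21% to 1.45% in non-responders and 1.64% in the untreated library. Of the tested genes, 19 averaged 100 CPM or more over the 10 treated libraries, 17 averaged 1 to 100 CPM and 3 less. Per kilobase of listed gene length, Serpina3k led with a mean level of 1918 CPM per kb. Next came Serpina6 at 575, Serpina3m at 464, Serpinf2 at 422 and Serping1 at 404. This order depends on the listed lengths: Serpinc1, listed at 8546 bases, averaged 1631 CPM but 191 CPM per kb. The Serpina3m level also includes reads of an exon shared with Serpina3k. The place of Serpina6 in that order came from the non-responders, in which its mean was 1107 CPM per kb against 220.3 in responders. The order among neighbours such as Serpina3m, Serpinf2 and Serping1 was not tested. Further down, Serpina1d and Serpina1c averaged 305 and 251 CPM per kb, and their order depended on the label. Serpina1d and Serpina1c stood at 243.6 and 309 CPM per kb in responders and at 398 and 164 in non-responders.

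Among the hormone carriers, Serpina6 encodes corticosteroid-binding globulin, which holds most of the cortisol or corticosterone in plasma. Serpina6 (ENSMUSG00000060807, mm10 chromosome 12, 103646630 to 103657212) stood at 240.3, 302, 315, 449, 264 and 756 CPM in responders 1 to 6, at 4189.6, 1523, 1252 and 832 CPM in non-responders 1 to 4, and at 294 CPM in the untreated library. Every responder was below every non-responder, and the untreated library lay among the responders. The means were 388 ± 194 CPM (SD, n = 6) in responders and 1949 ± 1520.5 CPM (SD, n = 4) in non-responders, and the responder minus non-responder difference was -2.33 ± 0.45 on the log2 scale (SE from the fit, adjusted p = 0.0187 by edgeR). Without non-responder library 1, the highest and the one with reads shifted to the 3′ end, the log2 fold change was -1.63 (edgeR adjusted p = 0.0294). The edgeR adjusted p rose to 0.0501 without responder library 2, 0.0502 without responder library 5 and 0.0568 without non-responder library 2. Responder library 6, with the highest responder level, has title number 29, which lies among those of the non-responders.

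The exon counts of Serpina6, which come from the same libraries and are no independent check, had the same direction in each of its 5 exons. In exons 1 to 4 no responder reached the level of a non-responder, and the log2 ratio of group means was -1.69, -1.80, -2.10 and -2.53. In exon 5, at the 3′ end, that ratio was -3.04, and responder 6 at 212.1 CPM overlapped non-responder 4 at 211.6 CPM. Non-responder library 1 held 2472 CPM in exon 5 alone, where the other non-responders held 212 to 394 CPM.

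Serpina7 encodes thyroxine-binding globulin and lies on the X chromosome. It stood at 58.1, 77.8, 58.3, 158, 53.3 and 81.9 CPM in responders 1 to 6, at 105, 120.1, 135 and 226 CPM in non-responders 1 to 4, and at 81.1 CPM in the untreated library. Only responder 4 reached the non-responder range, and the change of -0.85 ± 0.32 on the log2 scale (SE) missed the threshold (adjusted p = 0.108 by edgeR). Without responder 4 it was -1.15 and passed, at an edgeR adjusted p of 0.0176. It also passed in limma-voom with quality weights (adjusted p = 0.0107). The other plasma carriers, a list of 7 tested genes with albumin and transthyretin among them, gave no call in edgeR in either direction, with a median log2 fold change of -0.06. Alb made up most of their sum, at 48409.8 to 62663 CPM in responders and 76258 to 92385 CPM in non-responders, whereas Ttr stood at 3135 to 4796 CPM in responders and 1008 to 2889 CPM in non-responders.

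**Figure D2:**
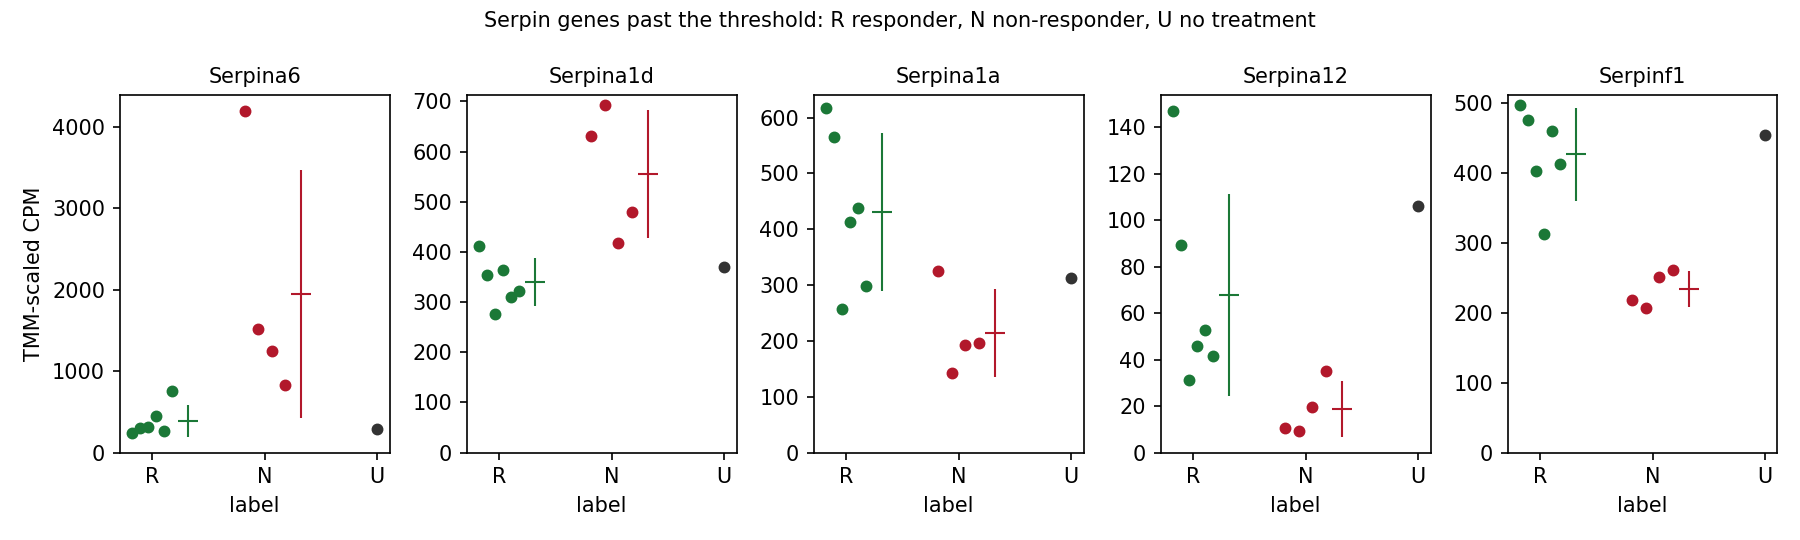
TMM-scaled CPM (vertical axis from 0, a separate scale per gene) of the 5 serpin genes past the threshold, with 1 point per library and a bar for the mean ± SD of the 6 responders (R) and the 4 non-responders (N), beside the untreated library (U). Serpina6, Serpina1d and Serpinf1 show no overlap between R and N, while Serpina1a and Serpina12 overlap.

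Serpina1a to Serpina1e are copies of the gene of α1-antitrypsin, which is known as the main plasma inhibitor of neutrophil elastase. Their loops differ, as shown above, and which protease each copy inhibits was not examined here. Serpina1a was higher and Serpina1d lower in responders than in non-responders, and the other 3 genes had an unadjusted p under 0.05 without passing. Serpina1a (ENSMUSG00000066366, mm10 chromosome 12, 103853589 to 103863562) stood at 616, 565, 257, 412, 438 and 299 CPM in responders 1 to 6, at 326, 142, 193 and 197 CPM in non-responders 1 to 4, and at 312 CPM in the untreated library. Non-responder 1 reached above responders 3 and 6, and the other 3 non-responders were below every responder. The log2 fold change was 1.01 ± 0.29 (SE), at an edgeR adjusted p of 0.04995 that barely passed. It passed without responder 3, responder 6 or non-responder 1 (edgeR adjusted p of 0.0427, 0.0398 and 0.0305). It did not pass without responders 1, 2, 4 or 5 (0.0945, 0.0985, 0.0647 and 0.0915) or non-responders 2, 3 or 4 (0.135, 0.0856 and 0.0922), nor with upper-quartile scaling (0.0537) or library size alone (0.0551).

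Serpina1d (ENSMUSG00000071177, mm10 chromosome 12, 103763594 to 103773592) stood at 412, 355, 276, 363, 309 and 322 CPM in responders 1 to 6, at 631, 692, 418 and 480.0 CPM in non-responders 1 to 4, and at 370.2 CPM in the untreated library. Groups did not overlap, with responder 1 and non-responder 3 at the boundary. The means of 339.6 ± 47.7 CPM (SD, n = 6) and 555 ± 128 CPM (SD, n = 4) differed by -0.71 ± 0.17 on the log2 scale (SE from the fit, adjusted p = 0.0297 by edgeR). The edgeR adjusted p was 0.0503, 0.0649, 0.0538 and 0.0719 without responder 1, 2, 3 or 5, and 0.0944 without non-responder 2.

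The remaining copies missed the threshold. Serpina1c stood at 542, 475, 403, 181, 519.7 and 401 CPM in responders, at 231, 136, 254 and 271 CPM in non-responders and at 518 CPM in the untreated library, and the responder minus non-responder difference was 0.92 ± 0.29 on the log2 scale (SE from the fit, adjusted p = 0.0669 by edgeR). Responder 4 alone lay within the non-responder range. Serpina1e stood at 151, 129.8, 104, 142, 141 and 115 CPM in responders, at 220.2, 204, 174 and 143 CPM in non-responders and at 119 CPM in the untreated library, and the responder minus non-responder difference was -0.51 ± 0.15 on the log2 scale (SE from the fit, adjusted p = 0.0518 by edgeR). Serpina1b stood at 888, 833, 657, 855, 842 and 825 CPM in responders, at 1386, 1111, 888 and 869 CPM in non-responders and at 798 CPM in the untreated library, and the responder minus non-responder difference was -0.38 ± 0.16 on the log2 scale (SE from the fit, adjusted p = 0.158 by edgeR). Both overlapped between groups only at their boundary. DESeq2 called Serpina1c and Serpina1e (adjusted p of 0.0143 and 0.0144), and limma-voom called Serpina1c (0.0433).

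The summed Serpina1 level overlapped between groups, at 1696 to 2610 CPM in responders, 1928 to 2794 CPM in non-responders and 2118 CPM in the untreated library. Within that sum, the shares of Serpina1a, Serpina1b, Serpina1d and Serpina1e did not overlap between responders and non-responders, and the share of Serpina1c did, at 9.28% to 23.8% and 5.95% to 13.8%. Shares in a library make up a whole, so a larger share of some copies lowers the others, and these separations are not independent. In CPM, only Serpina1d of these copies did not overlap between the groups. The pair of Serpina1a and Serpina1c, grouped after the values were seen, made up 44.4%, 44.1%, 38.9%, 30.4%, 42.6% and 35.7% of the Serpina1 reads in responders 1 to 6. In non-responders 1 to 4 they made up 19.9%, 12.2%, 23.2% and 23.9%, and in the untreated library 39.2%. The ratio of Serpina1a to Serpina1d reads within a library was 0.926 to 1.59 in responders, 0.205 to 0.517 in non-responders and 0.843 in the untreated library.

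**Figure D3:**
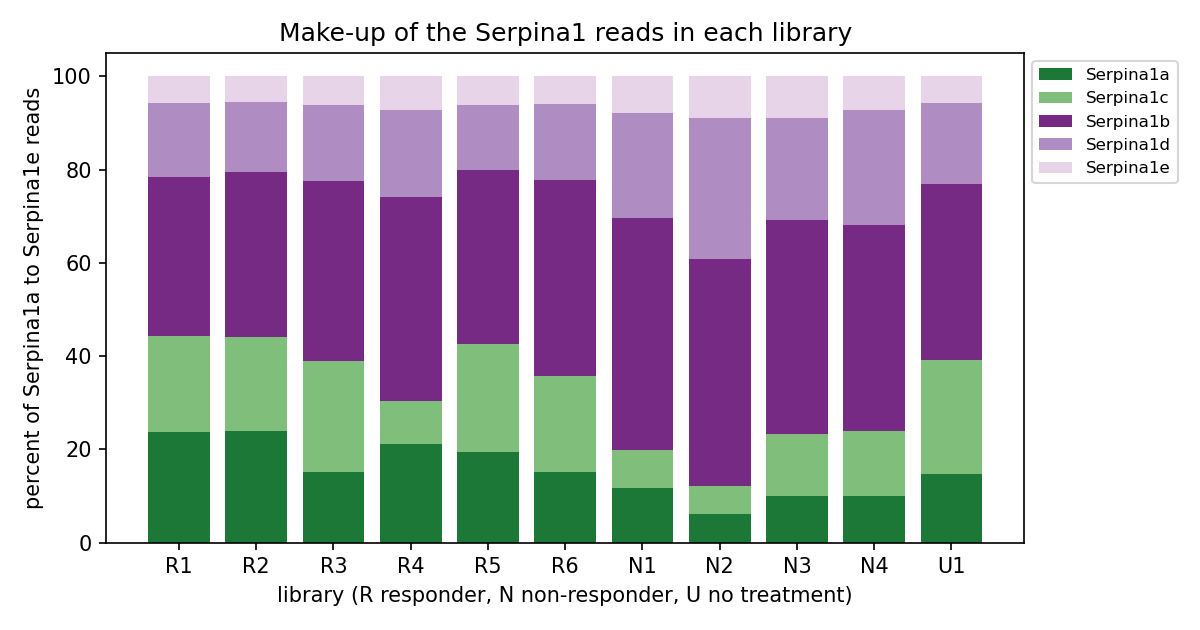
Share of Serpina1a to Serpina1e reads (percent, vertical axis from 0 to 100) taken by each gene in each of the 11 libraries. The 2 green segments, Serpina1a and Serpina1c, reach 30.4% to 44.4% in responders and 12.2% to 23.9% in non-responders.

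Reads that fit several copies limit these values. Of all 50-base windows of their transcripts, 42.4% occurred in no other gene for Serpina1a, 70.5% for Serpina1b, 20.7% for Serpina1c, 49.1% for Serpina1d and 65.4% for Serpina1e. Reads were uneven along Serpina1a: exon 3, its longest at 632 bases, held 2.28 to 7.86 CPM in responders, while exon 4, of 271 bases, held 119 to 409.9 CPM. In responders, the exon of 632 bases held 161 to 231 CPM in Serpina1b and 42.1 to 75.8 CPM in Serpina1d. It was low in the other copies too. In Serpina1c it held 1.31 to 19.9 CPM in responders, where exon 5 held 116 to 442 CPM. In Serpina1e it held 1.65 to 15.9 CPM, where exon 3 held 73.8 to 107 CPM. Whether likeness between copies sets these counts was not tested. The log2 ratio of group means was 1.62 and 1.56 in exons 4 and 5 of Serpina1a and 0.18 to 0.48 in its other 4 exons. All 5 exons of Serpina1d had a lower mean in responders, while Serpina1b had 4 lower and 1 higher and Serpina1e 3 lower and 2 higher. How the authors' counting treated reads that fit several copies is not given in the sources used here, so the split between copies is uncertain.

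The promoters of the 5 copies differ at a short stretch, and at bases on either side of it, that separate them in the same way. The 60 bases below come from the RefSeq promoter table (GRCm38.p6, minus strand), read 5′ to 3′ upstream of the RefSeq start, with bases 20 to 25 in capitals. For Serpina1e they lie inside the gene as counted, which is listed from 103946931 to 103958975. The stretch was picked after the expression values were seen, and it is shown as sequence, not as a site or a cause. It is not the only difference: bases before and after the capitals also set Serpina1a and Serpina1c apart from the other copies. These genes were the closest pair over the coding sequence as well.
Serpina1a (chr12:103863719-103863778): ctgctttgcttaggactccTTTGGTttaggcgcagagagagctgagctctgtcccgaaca
Serpina1c (chr12:103905056-103905115): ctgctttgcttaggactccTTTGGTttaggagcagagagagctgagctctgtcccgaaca
Serpina1b (chr12:103738296-103738355): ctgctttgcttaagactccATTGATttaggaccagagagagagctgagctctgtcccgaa
Serpina1d (chr12:103773728-103773787): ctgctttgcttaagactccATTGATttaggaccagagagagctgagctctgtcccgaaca
Serpina1e (chr12:103957054-103957113): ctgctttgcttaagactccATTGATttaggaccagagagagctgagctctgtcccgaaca
Serpina1a and Serpina1c, with the higher means in responders, read TTTGGT there, and the 3 copies with the lower means read ATTGAT, letters found at the core of motifs of the hepatocyte factors HNF6 and ONECUT2. ATTGAT or its reverse complement ATCAAT occurred in 7.54% of 32851 promoters of 300 bases and in 5 of the 29 tested serpins that have an entry, the other 2 being Serpina5 and Serpinf2. GTTAAT or its reverse complement ATTAAC, letters of a half-site of the hepatocyte factor HNF1, occurred in 7.10% of these promoters and in 8 of the 29 serpins, among them all 5 Serpina1 copies, Serpina3c and Serpina7. No Serpina6 promoter was used here.

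Elsewhere in clade A, Serpina12 encodes vaspin, an adipokine that inhibits kallikrein 7. Serpina12 (ENSMUSG00000041567, mm10 chromosome 12, 104028769 to 104044443) stood at 147, 89.1, 31.1, 45.8, 52.7 and 41.5 CPM in responders 1 to 6, at 10.7, 9.21, 19.4 and 35.2 CPM in non-responders 1 to 4, and at 106 CPM in the untreated library. Only responder 3 fell within the non-responder range. The log2 fold change was 1.86 ± 0.52 (SE, edgeR adjusted p = 0.0490). It was past the threshold without responders 3, 4 or 6 or non-responder 4, and not past it without responder 1, 2 or 5 (edgeR adjusted p of 0.0747, 0.0926 and 0.0783) or non-responder 1, 2 or 3 (0.112, 0.125 and 0.0842). It did not pass without the filter on low counts (0.113) or when the fit took in the untreated library as an extra group (0.0547).

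Serpinf1 encodes pigment epithelium-derived factor, a secreted serpin that does not inhibit proteases and is known as an inhibitor of blood vessel growth. Serpinf1 (ENSMUSG00000000753, mm10 chromosome 11, 75409769 to 75422701) stood at 496, 475, 403, 313, 459 and 413 CPM in responders 1 to 6, at 219, 206, 250.3 and 261 CPM in non-responders 1 to 4, and at 454 CPM in the untreated library. Every responder was above every non-responder, and the untreated library lay among the responders. The means of 426 ± 66.4 CPM (SD, n = 6) and 234 ± 25.6 CPM (SD, n = 4) differed by 0.87 ± 0.15 on the log2 scale (SE from the fit, adjusted p = 0.0149 by edgeR). It had the smallest adjusted p of the family, and of the 10 fits that left out 1 library it passed in 9, with an edgeR adjusted p of 0.0568 without non-responder 2. Of its 8 exons, 7 showed no overlap between groups, and in exon 8, at the 3′ end, non-responder 1 stood at 100.7 CPM within the responder range.

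**Figure D4:**
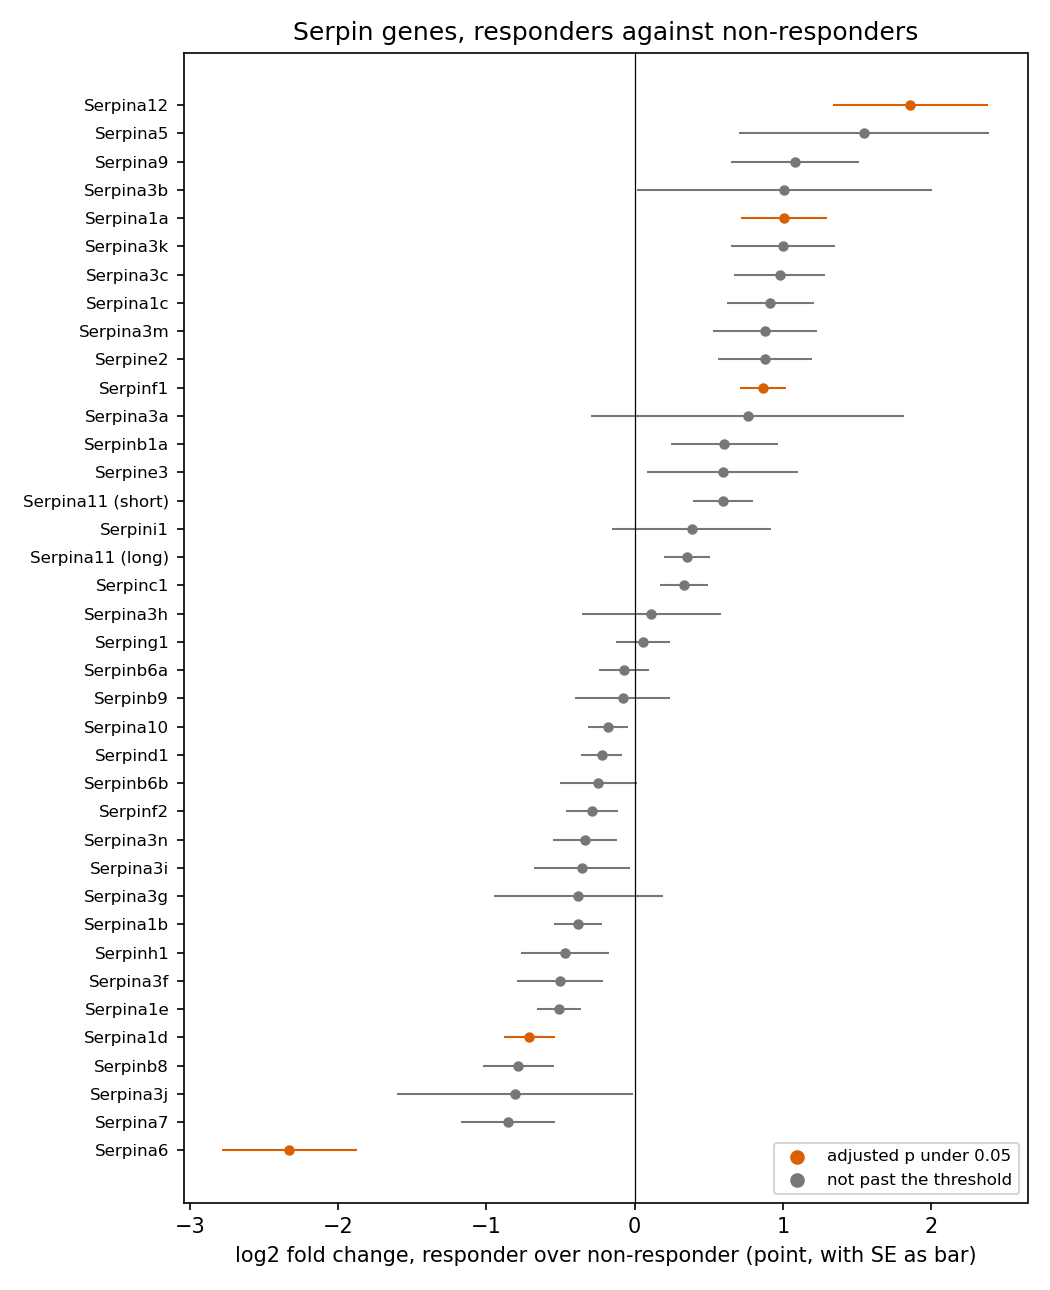
Log2 fold change of responders over non-responders (horizontal axis) for 38 of the 39 tested serpin genes, with the SE as a bar and the 5 genes past an adjusted p of 0.05 in orange. The values shown run from -2.33 for Serpina6 to 1.86 for Serpina12, and most genes lie within 1 of 0.

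In edgeR the Serpina3 cluster gave no call among its 11 genes (3 had an unadjusted p under 0.05), yet it held the most abundant serpin. DESeq2 called Serpina3c and Serpina3k (adjusted p of 0.0135 and 0.0210), and limma-voom called them (0.0378 and 0.0468) and Serpina3f (0.0452). Serpina3k encodes contrapsin, a trypsin inhibitor of mouse plasma, and Serpina3c and Serpina3m are its close relatives. Serpina3k stood at 5439, 5454, 3632, 4541, 5522 and 5013 CPM in responders 1 to 6, at 865, 1826, 3449 and 3718 CPM in non-responders 1 to 4, and at 6647 CPM in the untreated library. Non-responders 1 and 2 were far below the rest, and non-responder 4 lay just above responder 3. The log2 fold change was 1.001 ± 0.35 (SE, edgeR adjusted p = 0.0890).

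Serpina3m stood at 1181, 1110.3, 743, 916, 1056 and 856 CPM in responders, at 179.6, 391, 749 and 801 CPM in non-responders and at 1217 CPM in the untreated library, and the responder minus non-responder difference was 0.88 ± 0.35 on the log2 scale (SE from the fit, adjusted p = 0.128 by edgeR). Serpina3c stood at 456, 443, 292, 361, 468 and 375 CPM in responders, at 89.4, 141, 280.0 and 299.97 CPM in non-responders and at 526 CPM in the untreated library, and the responder minus non-responder difference was 0.98 ± 0.31 on the log2 scale (SE from the fit, adjusted p = 0.0661 by edgeR). The same 2 non-responders were lowest for all 3 genes, and the untreated library was highest. While Serpina3k spanned 7.69-fold over the 11 libraries, its ratio to Serpina3m stayed between 4.60 and 5.85 and its ratio to Serpina3c between 9.68 and 13.4. The counts of Serpina3k and Serpina3m both include reads of a shared exon, described below. Part of the steadiness of their ratio is therefore built in, and how large that part is was not tested.

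Serpina3k and Serpina3m share counts. Exon 1 of Serpina3m as listed (mm10 chromosome 12, 104338486 to 104338545) is also exon 1 of Serpina3k, held the same count for both in all 11 libraries, and took 14.5% to 52.6% of the Serpina3m exon reads. Without it, Serpina3m exons 2 to 5 summed to 415 to 598 CPM in responders, 161 to 401 CPM in non-responders and 593 CPM in the untreated library. In this sum responders and non-responders did not overlap, by a narrow margin, beside 11.3% of all genes without overlap in their gene values. Taken alone, each of the 5 Serpina3m exons overlapped between the groups. For Serpina3c no such exon was found, and 95.7% of its 50-base windows occurred in no other gene.

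Serpina3n, an acute phase gene of this cluster whose product inhibits granzyme B, had values that did not follow those of Serpina3k. It stood at 253, 275, 286, 181, 256 and 212 CPM in responders, at 321, 458, 255 and 197 CPM in non-responders and at 249 CPM in the untreated library, and the responder minus non-responder difference was -0.33 ± 0.22 on the log2 scale (SE from the fit, adjusted p = 0.354 by edgeR). The ratio of Serpina3k to Serpina3n ran from 2.70 in non-responder 1 to 26.7 in the untreated library. In non-responder 2, where Serpina3n was highest, the summed level of 20 acute phase genes was 30805 CPM, against 19272 to 21739 CPM in the other non-responders; its part in the result was not tested.

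The other 7 genes of the cluster, Serpina3a, Serpina3b and Serpina3f to Serpina3j, averaged 1 to 100 CPM and none passed in edgeR. Serpina3a, Serpina3b and Serpina3j had coefficients of variation of 78.0%, 97.6% and 96.7% over the 10 treated libraries. Serpina3a was at 0.111 and 0.217 CPM in non-responders 1 and 2 but 10.003 and 22.2 CPM in non-responders 3 and 4. It was at 3.58 to 28.4 CPM in responders and 0.695 CPM in the untreated library. Serpina3b was at 0.282, 0.876 and 0.893 CPM in responders 1, 2 and 6 and at 5.36 to 7.55 CPM in the other responders.

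**Figure D5:**
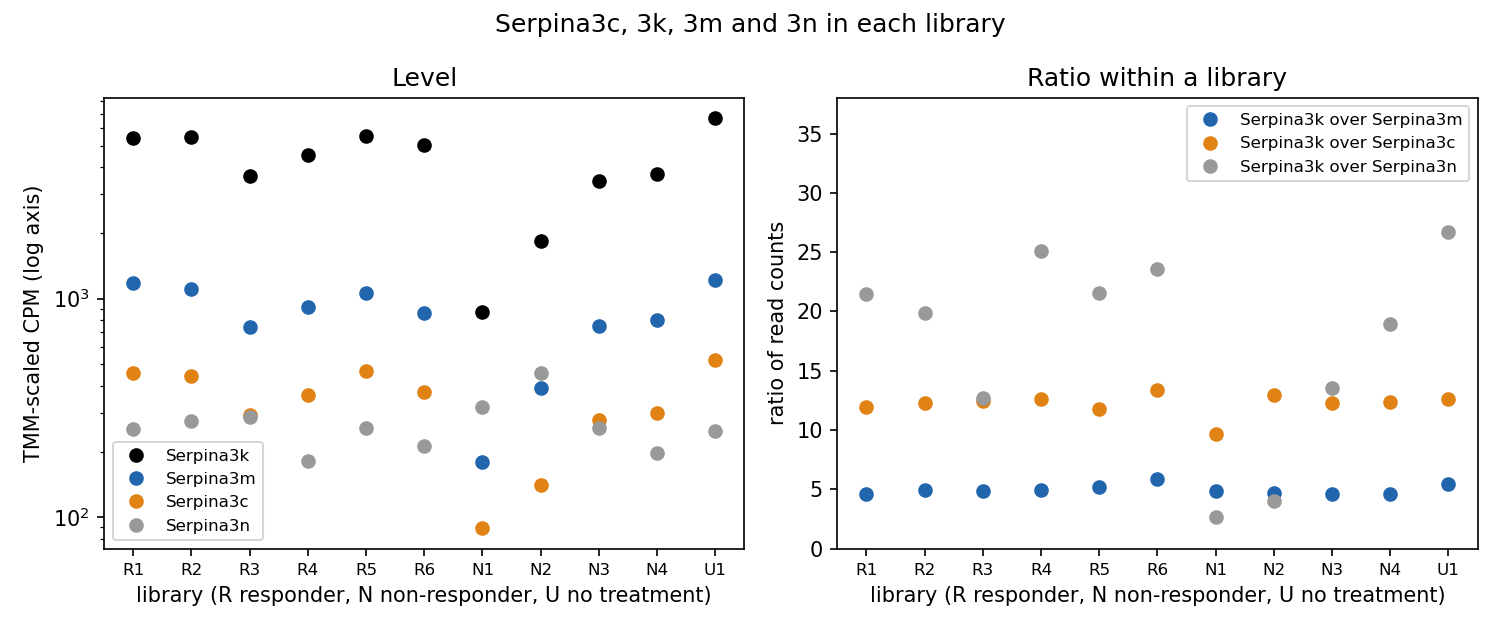
Left, TMM-scaled CPM (log axis) of Serpina3k, Serpina3m, Serpina3c and Serpina3n in each of the 11 libraries; right, the ratio of Serpina3k reads to those of each of the other 3 genes in the same library. The ratio to Serpina3m stays between 4.60 and 5.85, whereas the ratio to Serpina3n runs from 2.70 to 26.7. Serpina3k and Serpina3m share the reads of an exon, which steadies their ratio.

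The serpins that restrain coagulation and fibrinolysis in plasma gave no call in edgeR, with 0 of Serpinc1, Serpind1, Serpinf2, Serpina10 and Serpina5 at an unadjusted p under 0.05. Serpinc1 and Serpind1 were called by limma-voom with quality weights (adjusted p of 0.0323 and 0.0346) and not by DESeq2. Serpinc1 encodes antithrombin, the heparin-dependent inhibitor of thrombin and factor X. It stood at 2049.9, 2015, 1866, 1349, 1862 and 1519.9 CPM in responders, at 1606, 1340.1, 1382 and 1324 CPM in non-responders and at 1911 CPM in the untreated library, and the responder minus non-responder difference was 0.33 ± 0.16 on the log2 scale (SE from the fit, adjusted p = 0.213 by edgeR). Serpind1, the gene of heparin cofactor II, stood at 682, 666, 655, 615, 632 and 671 CPM in responders, at 582, 882, 789 and 799 CPM in non-responders and at 650.5 CPM in the untreated library, and the responder minus non-responder difference was -0.22 ± 0.14 on the log2 scale (SE from the fit, adjusted p = 0.322 by edgeR). Its non-responders lay on both sides of the narrow responder range.

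Serpinf2 encodes α2-antiplasmin, the main inhibitor of plasmin. It stood at 1074, 1025, 930.3, 796, 822 and 766 CPM in responders, at 1103, 1448, 876 and 977 CPM in non-responders and at 711 CPM in the untreated library, which was the lowest of all. Its log2 fold change was -0.29 ± 0.17 (SE, edgeR adjusted p = 0.313). Serpina10, whose product inhibits factor X together with protein Z, was among the steadiest members, at 242, 253, 284, 228, 243 and 240.4 CPM in responders, 324, 323, 231 and 246 CPM in non-responders and 249 CPM in the untreated library (log2 fold change -0.18 ± 0.13, SE, edgeR adjusted p = 0.422).

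Serping1 encodes the C1 inhibitor, which acts on complement proteases and plasma kallikrein. It stood at 859, 958, 1443, 809, 853 and 808 CPM in responders, at 869, 877, 945 and 978 CPM in non-responders and at 969.7 CPM in the untreated library. Responder 3 stood alone above the rest, and the log2 fold change was 0.06 ± 0.18 (SE, edgeR adjusted p = 0.874). Serpina5, the protein C inhibitor, was scarce, at 1.18 to 4.96 CPM in responders, at 0.148, 0, 1.62 and 2.42 CPM in non-responders and at 3.54 CPM in the untreated library (edgeR adjusted p = 0.264).

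Of the plasma proteases that these inhibitors meet, 17 were tested and 1 passed, where 9.93% of all genes did. Klkb1, the gene of plasma kallikrein, was 168 to 288 CPM in responders and 70.3 to 167 CPM in non-responders, and the responder minus non-responder difference was 0.95 ± 0.27 on the log2 scale (SE from the fit, adjusted p = 0.0448 by edgeR). The median log2 fold change of the list was 0.03. Of 10 tested cofactors of serpins and receptors that clear serpin complexes, 3 receptor genes were called higher in responders and none lower. The shares over all genes tested were 4.11% called higher and 5.82% called lower. Among the 3 receptor genes, Lrp1 was higher by 0.67 and Vldlr by 0.85 on the log2 scale (edgeR adjusted p of 0.0248 and 0.0299). Lrp1, the main receptor for serpin and protease complexes in hepatocytes, did not overlap between groups, and the median of these 10 genes was 0.13.

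In clade E, none of the 3 genes passed in edgeR (2 had an unadjusted p under 0.05). Serpine2, the gene of protease nexin-1, which inhibits thrombin and plasminogen activators, stood at 4.96 to 13.5 CPM in responders, at 6.93, 2.56, 5.59 and 7.53 CPM in non-responders and at 11.2 CPM in the untreated library (log2 fold change 0.88 ± 0.32, SE, edgeR adjusted p = 0.0988), and DESeq2 called it (adjusted p = 0.0390). Serpine3 stayed under 1 CPM in every library.

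Of 10 tested genes of plasminogen activation, 2 were lower in responders and none higher, with a list median of -0.58. These counts stood beside 5.82% of all genes called lower and 4.11% called higher. Plat, the tissue plasminogen activator gene, was 0.380 to 2.13 CPM in responders and 9.03, 13.9, 2.05 and 3.92 CPM in non-responders (log2 fold change -2.89 ± 0.62, SE, edgeR adjusted p = 0.0229). Anxa2, a cell surface cofactor of plasmin formation, was 7.90 to 57.8 CPM in responders and 98.5 to 212 CPM in non-responders (log2 fold change -2.61 ± 0.66, SE, edgeR adjusted p = 0.0352). Non-responders 1 and 2 were the highest libraries for both.

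Inside cells, 5 of 17 clade B genes were tested and none passed in edgeR (1, Serpinb8, had an unadjusted p under 0.05). Serpinb6a, a broad inhibitor of the cytoplasm, was the most abundant, at 29.1 to 43.2 CPM in responders and 30.1 to 52.9 CPM in non-responders (edgeR adjusted p = 0.825). Serpinb9, which protects cells from granzyme B, stood at 4.79 to 13.2 CPM in responders and 4.50 to 12.05 CPM in non-responders (edgeR adjusted p = 0.899). Serpinb8, which can inhibit furin, stood at 1.85, 2.26, 2.21, 2.04, 1.30 and 1.24 CPM in responders, at 2.29, 4.02, 3.39 and 2.77 CPM in non-responders and at 1.08 CPM in the untreated library. All its responders were below all non-responders, by a narrow margin between responder 2 and non-responder 1, and the change of -0.79 ± 0.24 on the log2 scale (SE) missed the threshold (adjusted p = 0.0580 by edgeR). Serpinb8 passed in DESeq2 and in limma-voom (adjusted p of 0.0181 and 0.0179), and in edgeR without non-responder 1 (0.0409). Serpinb6b and Serpinb1a were at 0.249 to 3.15 CPM, with edgeR adjusted p of 0.589 and 0.309.

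The granule proteases met by clade A and clade B serpins were scarce. Of 10 genes, 4 could be tested, and Gzmk had no read in any library. Lower in responders were 2 of the 4, where 5.82% of all genes were called lower. Prtn3, the gene of proteinase 3, was 0 to 1.24 CPM in responders and 17.8, 14.1, 2.77 and 3.37 CPM in non-responders (log2 fold change -4.27 ± 0.80, SE, edgeR adjusted p = 0.0178). Gzmb, the granzyme B gene, was 0.161 to 0.648 CPM in responders and 0.738 to 1.39 CPM in non-responders (log2 fold change -1.40 ± 0.39, SE, edgeR adjusted p = 0.0431). Beside these, the neutrophil markers summed to 0.868 to 3.96 CPM in responders and 1.22 to 5.49 CPM in non-responders, with none of the 3 tested past the threshold. The T and NK cell markers summed to 3.91 to 7.12 CPM and 3.76 to 13.7 CPM, with Klrb1c lower in responders and the other 6 not past the threshold; the part of these cells in the result was not tested. Of 8 cysteine proteases met by clade B, none passed in edgeR.

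Serpinh1 encodes Hsp47, the collagen chaperone of the endoplasmic reticulum. It stood at 6.004 to 13.1 CPM in responders, at 18.99, 12.9, 7.05 and 8.31 CPM in non-responders and at 9.08 CPM in the untreated library (log2 fold change -0.47 ± 0.30, SE, edgeR adjusted p = 0.336). Of 17 collagen genes and partners, Col4a1 and Col4a2 were lower in responders by log2 fold changes of -0.99 and -0.78 (edgeR adjusted p of 0.0472 and 0.0466), and none was higher. Among all genes tested, 5.82% were called lower and 4.11% higher. The stellate cell and fibroblast markers, of which none of 7 passed, summed to 159 to 248 CPM in responders and 128 to 334 CPM in non-responders. Serpini1, neuroserpin, stood at 0.107 to 0.775 CPM over the treated libraries.

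Of the protease inhibitors of other families, 22 were tested, with a median of -0.01. In responders 4 were lower and none higher, beside 5.82% of all genes called lower and 4.11% called higher. None of the 4 called genes, A2m, Cstb, Ahsg and Kng2, overlapped between groups, where 11.3% of all genes did not. Kng2 was lower by -0.60 on the log2 scale (edgeR adjusted p = 0.0233). Itih1 and Tfpi2, higher in responders, and Kng1, lower, did not overlap between groups either. These 3 did not pass (edgeR adjusted p of 0.0594, 0.0848 and 0.05002). A2m, the gene of α2-macroglobulin, which traps proteases in a cage, was 0.135 to 0.736 CPM in responders, 132, 128, 5.93 and 3.67 CPM in non-responders and 0.450 CPM in the untreated library, and the responder minus non-responder difference was -7.07 ± 1.09 on the log2 scale (SE from the fit, adjusted p = 0.0149 by edgeR). Cstb, the cystatin B gene, and Ahsg, the fetuin-A gene, were lower in responders by log2 fold changes of -0.74 and -1.04 (edgeR adjusted p of 0.0170 and 0.0194).

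The acute phase genes, of which several serpins are counted as members, did not move one way. Of 19 tested, Orm1 was higher in responders by 1.31 on the log2 scale (edgeR adjusted p = 0.0226). Cp and Apcs were lower, by -0.999 and -1.39 (edgeR adjusted p of 0.0233 and 0.0298). The list median was 0.03, and the calls stood beside 4.11% of all genes called higher and 5.82% called lower.

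The remaining clade A genes did not pass in edgeR, and DESeq2 called the short Serpina11 gene (adjusted p = 0.0381). Serpina11 is listed as 2 overlapping genes, and 669 of the 741 bases of the short one (ENSMUSG00000093753) lie in exons of the long one (ENSMUSG00000063232), so their counts are not independent. The long gene stood at 221, 244, 239.5, 171, 219 and 184 CPM in responders, at 190.3, 124, 159 and 192 CPM in non-responders and at 231 CPM in the untreated library (edgeR adjusted p = 0.173). The short gene stood at 125, 137, 138, 95.8, 126 and 100.003 CPM in responders, at 50.1, 69.9, 92.0 and 107 CPM in non-responders and at 133 CPM in the untreated library (edgeR adjusted p = 0.0812). Serpina9, known from germinal centre B cells, stood at 4.79 to 10.02 CPM in responders and 0.924 to 5.56 CPM in non-responders (edgeR adjusted p = 0.129). The 4 tested markers of B and plasma cells summed to 3.43 to 15.0 CPM in responders and 3.43 to 9.11 CPM in non-responders.

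The untreated library lay outside the range of the 10 treated libraries for 7 of 39 serpins, where 16.1% of all genes tested did. It was above the range for Serpina3b, Serpina3c, Serpina3k and Serpina3m (8.15% of all genes were above) and below it for Serpinb6b, Serpinb8 and Serpinf2 (7.99% were below). The 4 above belong to 1 cluster, and Serpina3k and Serpina3m share an exon. For all 5 serpins that passed between responders and non-responders, it lay within the responder range. One library gives no spread, so no test was made.

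The 13 members under the filter on low counts had between 2 and 40 reads over all 11 libraries. They were Serpina1f, with 40 reads, and 12 clade B genes: Serpinb1b, Serpinb1c, Serpinb2, Serpinb5, Serpinb6c, Serpinb7, Serpinb9b, Serpinb9c, Serpinb9e, Serpinb10, Serpinb12 and Serpinb13. Serpinb1c, Serpinb5 and Serpinb9e entered the family with 2 reads each, just inside the rule's minimum of 1. All 10 reads of Serpinb9c came from 1 library. With no filter on low counts, where all 52 members were tested, none of the 13 was called in edgeR. Serpinb5 and Serpinb7, which are known from epithelia such as skin, were read 2 and 7 times, and the 5 keratinocyte markers summed to 1.45 to 3.45 CPM over the treated libraries, most of it from Krt10, with no read of Krt14 or Krt1 in any library.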

How the data were processed

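Per the labels' protocols, TRIzol was used to extract RNA from livers and the libraries were Illumina TruSeq, with a small RNA kit named for indexing. The build mm10 and FastQC are named per the submitters' processing notes. Which aligner, counting tool, annotation and strand setting were used is not given in the sources used here. Gene and exon tables deposited by the authors hold raw counts per gene and per exon of a transcript for each library, per the file headers. RPKM columns were not used. Libraries were grouped by the response label and numbered in accession order.

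Responders (6) and non-responders (4) were compared over the whole gene table by the robust quasi-likelihood F test of edgeR 4.0.16 under R 4.3.3, after filterByExpr and TMM scaling, with Benjamini-Hochberg adjustment over 17610 genes and a threshold of 0.05. The SE was taken as the size of a log2 fold change over the square root of its F. TMM-scaled CPM cover all 11 libraries. For the untreated library only its position relative to the others was noted. Alternatives used other scalings and filters, DESeq2 1.42.0, limma 3.58.1 voom with quality weights, the title number as a covariate, and each library left out in turn. The steps were checked on simulated data.

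All members are counted, and some results are not reported here. Values in each library are given for those past the threshold or with a mean of 100 CPM or more. The members, the gene lists and the tests were chosen with earlier results of these data known. Loops and windows of 50 bases come from GENCODE M21 transcripts, with the longest open reading frame taken as coding, and promoters (250 bases before to 50 after the start) from RefSeq on GRCm38.p6. Of the 39 tested serpins, 29 matched a promoter entry.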

Additional observations from a re-analysis of the deposited data

Results flagged for a closer look

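Each tested serpin was checked in responders and in non-responders for a library set apart from the rest of its group by a gap that takes up most of the group's range. Of 78 such groups 5 held one, and chance alone flags about 5% of groups. Serpina1b was lowest in responder 3, at 657 CPM against 825 to 888 CPM in the other responders. Serping1 was highest in the same library, at 1443 CPM against 808 to 958 CPM. The summed level of the acute phase list was also highest there, at 32435 CPM against 16058 to 22305 CPM in the other responders, and its part in both values was not tested. Serpina7 was highest in responder 4, at 158 CPM against 53.3 to 81.9 CPM, in the library with the fewest counts. Serpina3j was highest in responder 1, at 15.4 CPM against 0.429 to 2.48 CPM. Serpinb6b was highest in non-responder 2, at 3.15 CPM against 1.72 to 1.85 CPM.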

How the results depend on the processing

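With RLE scaling the same 5 serpins passed. With upper-quartile or library-size scaling Serpina1a was lost and Serpina1e gained, which made 2 higher and 3 lower. Over these scalings the untreated library lay outside the treated range for 7 or 8 serpins. With a filter of 1 CPM in at least 4 libraries, 4 serpins were lower in responders. DESeq2 called 13 serpins, 8 higher and 5 lower, and limma-voom with quality weights called 13, with 7 higher and 6 lower. Adding the title number to the fit left 0 calls, 0 higher and 0 lower. Leaving out 1 library at a time gave 0 to 8 calls, with 0 to 4 higher and 0 to 4 lower. It also added calls: Serpina3j without responder 1, Serpina1c and Serpina7 without responder 4, and Serpina3f and Serpinb8 without non-responder 1. Among others, Serpina3c was added without non-responder 3 or 4, and Serpina1e and the short Serpina11 gene without non-responder 4.

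The median log2 fold change of the tested serpins, 0.06, changed sign with small values: -0.082 with the 1 CPM filter, -0.0036 with limma-voom, -0.29 with the title number and -0.00049 with the untreated library as a group in the fit. Over fits without 1 library it ran from -0.10 to 0.11, at -0.095 without responder 1, -0.098 without responder 3 and -0.10 without non-responder 1. Serping1 changed sign to -0.027 with limma-voom, -0.10 with the title number and -0.098 without responder 3, and Serpina3n to 0.024 with limma-voom. The causes were not tested. All 5 called serpins kept their direction in each of these fits.

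No paired analysis was possible because the replicate numbers follow accession order and the title numbers differ between the groups, so no number pairs a responder with a non-responder. The 13 serpins with at most 40 reads were compared only in the fit with no filter, which called 4 serpins, none of them among the 13.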

Other observations

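Serpin pseudogene symbols were outside the family as defined, but 2 of them had reads at the level of working serpins in some libraries. Serpina4-ps1 stood at 319 to 779 CPM in responders, 24.1 to 365 CPM in non-responders and 584 CPM in the untreated library, and its log2 fold change of 1.68 did not pass (edgeR adjusted p = 0.144). Its lowest libraries were non-responders 1 and 2, which were also lowest for Serpina3k. Serpina3l-ps ran from 1.85 to 89.5 CPM over the treated libraries and stood at 4.29 CPM in the untreated one, with wide overlap between labels.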
